A study of Homo sapiens with 6 samples.

Results

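The 35 autophagy genes described here, among the 35993 genes of the deposited table, were chosen by symbol to cover the steps of macroautophagy. They comprised 5 genes of the initiation complex, 4 of the PI3K complex, 5 for membrane supply and PI3P binding, 10 of the conjugation machinery, 5 ATG8 proteins, 5 cargo receptors and the fusion factor STX17. All 35 had enough counts to be tested. The members and the further lists below were chosen with earlier results of these data known. Their shares beside those of all genes are thus descriptions and not tests. RNA was sequenced from MIA PaCa-2, an established human pancreatic carcinoma cell line, in 3 untreated libraries and 3 libraries of cells given 4 µM rhCYGB for 48 h. rhCYGB is a His-tagged recombinant human cytoglobin, a globin of the stellate cells of liver and pancreas, which the authors made in bacteria. They purified the protein and reported that it was free of endotoxin contamination and not toxic in vitro. Cells were grown in DMEM with serum and, under the treatment protocol, were moved to DMEM with little serum on the day before rhCYGB was added. The untreated cells are the only controls analysed here, so rhCYGB itself and anything delivered with the protein preparation cannot be told apart. The labels do not say whether the libraries of a group came from separate cultures, so the p-values measure only the spread between these libraries.

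Macroautophagy is the pathway by which a cell encloses cytoplasm, organelles or aggregates in a double membrane, the autophagosome, and delivers them to the lysosome. The ULK kinase complex starts the process, a lipid kinase complex marks the membrane with PI3P, WIPI and ATG2 proteins bring lipid to it, and a ubiquitin-like conjugation system couples ATG8 proteins (LC3 and GABARAP) to its lipids. Cargo receptors bind both the cargo and the ATG8 proteins, and are themselves degraded with the cargo. RNA levels alone do not measure how much material passes through the pathway, and SQSTM1 protein and LC3 lipidation were not measured in these files.

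The sequences before the transcription starts are shown for the genes on which the results turn. For SQSTM1 all 3 starts are shown, since 1 transcript was called higher and 1 lower, the lower call being weakly held. The others are MAP1LC3B and GABARAPL1, which rose, GABARAPL2, the ATG8 gene that fell, and the pair of members with an E-box. Each run reads 5′ to 3′ on the strand of the gene and ends at the base before the start, from RefSeq on GRCh38.p14. Capitals mark a match to one of 4 motifs searched on both strands.
SQSTM1 upstream start, chr5:179806143-179806392, plus strand: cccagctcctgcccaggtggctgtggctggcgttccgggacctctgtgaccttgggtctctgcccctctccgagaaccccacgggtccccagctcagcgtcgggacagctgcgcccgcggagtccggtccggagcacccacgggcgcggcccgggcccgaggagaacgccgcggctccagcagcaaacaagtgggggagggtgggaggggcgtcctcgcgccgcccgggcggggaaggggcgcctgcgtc
SQSTM1 middle start, chr5:179806759-179807008, plus strand: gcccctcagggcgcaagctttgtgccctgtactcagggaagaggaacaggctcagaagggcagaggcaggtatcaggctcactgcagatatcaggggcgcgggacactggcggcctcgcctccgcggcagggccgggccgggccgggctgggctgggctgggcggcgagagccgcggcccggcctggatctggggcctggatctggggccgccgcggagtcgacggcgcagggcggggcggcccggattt
SQSTM1 downstream start, chr5:179820655-179820904, plus strand: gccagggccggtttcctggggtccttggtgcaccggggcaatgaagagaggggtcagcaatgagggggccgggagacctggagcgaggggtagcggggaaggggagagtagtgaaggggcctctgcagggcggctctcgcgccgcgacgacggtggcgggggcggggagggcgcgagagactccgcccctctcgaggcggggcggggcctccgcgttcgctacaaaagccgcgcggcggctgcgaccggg
MAP1LC3B, chr16:87392086-87392335, plus strand: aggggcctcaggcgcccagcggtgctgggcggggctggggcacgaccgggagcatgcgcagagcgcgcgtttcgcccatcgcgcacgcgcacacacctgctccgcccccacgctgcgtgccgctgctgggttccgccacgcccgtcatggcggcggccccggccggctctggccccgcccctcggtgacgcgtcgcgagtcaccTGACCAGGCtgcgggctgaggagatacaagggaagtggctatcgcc
GABARAPL1, chr12:10212627-10212876, plus strand: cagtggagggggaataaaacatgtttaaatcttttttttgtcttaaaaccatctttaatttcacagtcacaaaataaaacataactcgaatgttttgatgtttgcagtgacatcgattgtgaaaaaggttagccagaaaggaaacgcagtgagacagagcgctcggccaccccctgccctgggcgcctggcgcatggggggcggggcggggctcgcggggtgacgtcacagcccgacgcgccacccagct
GABARAPL2, chr16:75566129-75566378, plus strand: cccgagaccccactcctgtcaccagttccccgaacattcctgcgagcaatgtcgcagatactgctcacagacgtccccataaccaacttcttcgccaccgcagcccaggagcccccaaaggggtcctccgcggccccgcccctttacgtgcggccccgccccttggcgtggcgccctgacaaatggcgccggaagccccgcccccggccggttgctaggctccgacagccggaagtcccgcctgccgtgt
ATG3, chr3:112561963-112562022, minus strand: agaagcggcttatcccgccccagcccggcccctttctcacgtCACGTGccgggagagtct
ATG14, chr14:55411831-55411890, minus strand: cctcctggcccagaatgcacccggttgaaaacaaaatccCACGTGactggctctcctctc

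The motifs were CACGTG, the E-box, TCACGTGA, a longer E-box that contains it, TGATGNAA, the form of the element bound by ATF4 and CHOP dimers, and TGACNNNGC, the antioxidant response element. Windows of 300 bases, 250 before and 50 after the start, were found for 30 of the 35 members, 37 windows in all. CACGTG was in 2 member windows (5.41%), those of ATG3 and ATG14, against 7.26% of all 35116 RefSeq windows. TCACGTGA was in 1 member window, in ATG3 just after the start, against 0.98% of all windows. TGACNNNGC was in 3 member windows (8.11%), those of ATG101, CALCOCO2 and MAP1LC3B, against 13.3% of all windows. TGATGNAA was in 0 of the 37 member windows and in 3.62% of all windows. These matches describe letters in the windows and no binding was measured.

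The 6 libraries held between 34838399 and 42271299 counts on genes, and a count of 3 corresponded to between 0.0669 and 0.0902 CPM, the counts relative to the TMM-scaled library size. No library repeated another, since counts within a group varied beyond sampling noise (chi-square over degrees of freedom 4.81 to 6.88). The keratins KRT8, KRT18 and KRT19 were abundant in every library, while EPCAM, also in the list for an epithelial carcinoma line, was listed at 0 in all 6. Among the 8 stellate cell and fibroblast markers LUM and DCN were at 0 in all libraries, and the summed level of the list was 157 to 168 CPM (without TMM factors) in untreated libraries and 10.7 to 12.9 in rhCYGB libraries. For the 3 endothelial markers, with PECAM1 at 0, the sums were 115 to 129 and 9.78 to 13, and for the 4 leukocyte markers, with PTPRC and CD3E at 0, 40.7 to 44.6 and 66.7 to 69.4. The leukocyte sum followed CD68, a lysosomal protein, which rose from a mean of 36.0 to 71.4 CPM, while CD14 was lower at 0.23 CPM against 4.10 CPM. The stellate cell and fibroblast sum was mostly COL1A2, at a mean of 142 CPM untreated and 6.86 CPM after rhCYGB. COL3A1 also fell, from 3.99 to 0.12 CPM, and ACTA2 was not called. The endothelial sum was mostly CDH5, at 117 CPM untreated and 12.2 CPM after rhCYGB. COL1A1, PDGFRB, DES and VWF had at most 10 counts in any library. Of the 4 acinar markers 3 were at 0 in all libraries. The part of these shifts in the results on autophagy genes was not tested. In bulk RNA of a single cell line, such single genes do not show that cells of another type were present or lost.

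Most autophagy genes were higher after rhCYGB, and by the median of each role the ATG8 proteins and the cargo receptors rose most, with single large rises also for WIPI1 and UVRAG. The quasi-likelihood test of edgeR was run on 14728 genes, with p-values adjusted over all of them by the Benjamini-Hochberg method. At an adjusted p under 0.05, 23 of the 35 members were called higher, where 39% of all genes tested were, and 8 were called lower, where 38.6% were. With a fold change of 2 or more as well, 10 members were higher against 12.4% of all genes, and 0 were lower against 14.7%. The median log2 fold change of the 35 members was 0.47, against -0.0046 over all genes tested. The CPM ranges of the groups did not overlap for 32 members, where 79.5% of all genes tested did not overlap, so a separation between the groups is the usual case in this table. Together the members took 0.247% to 0.258% of all counts in untreated libraries and 0.526% to 0.54% in rhCYGB libraries. SQSTM1 alone made up 25.9% to 28.7% of these counts before and 45% to 46.4% after rhCYGB, and without it the members' share was 0.183% to 0.184% and 0.289% to 0.29%.

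**Figure D1:**
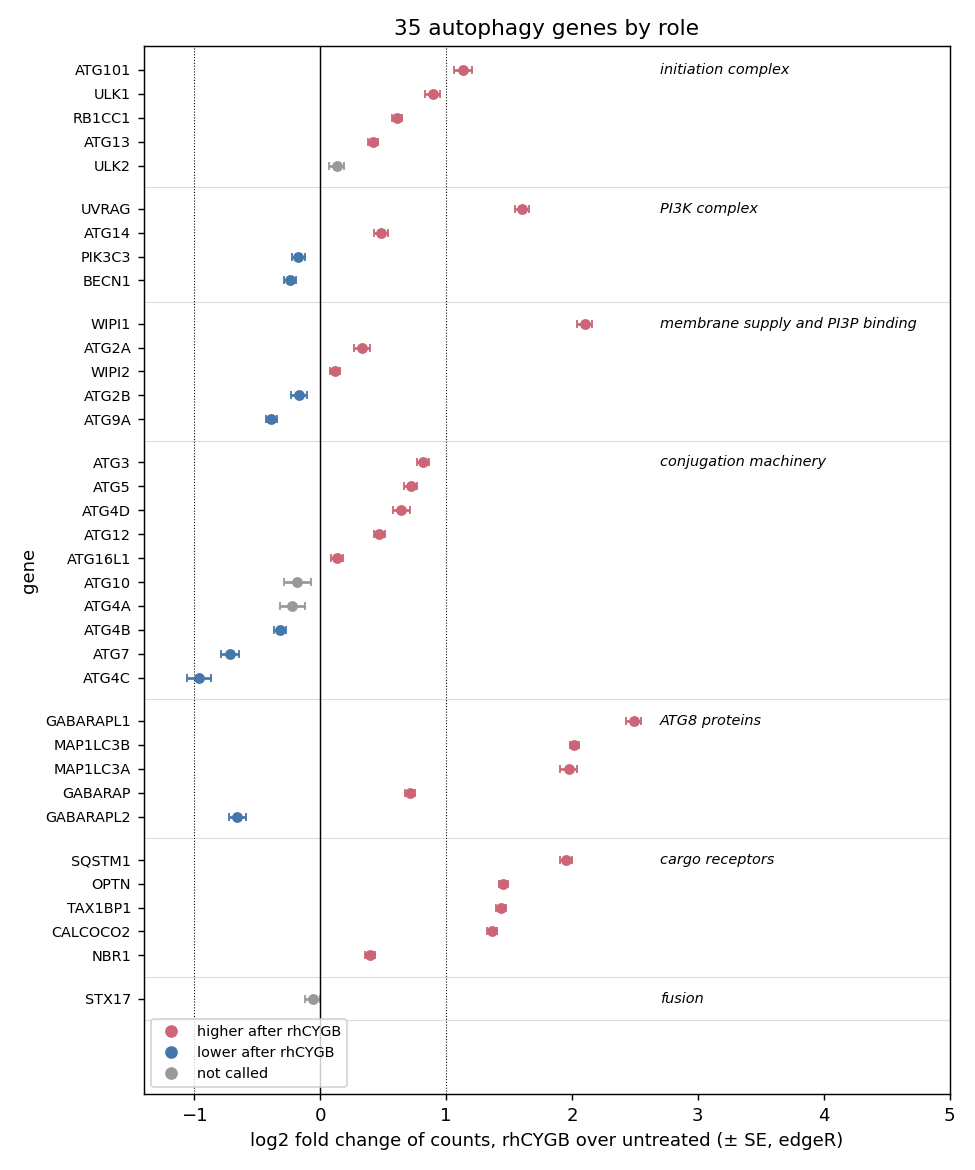
Log2 fold change of the read counts of the 35 autophagy genes, rhCYGB over untreated (x axis), with the standard error from edgeR as bars and genes grouped by role (y axis); dotted lines mark a fold change of 2. The 4 largest cargo receptor changes lie between 1.37 and 1.95, to the right of every initiation and conjugation gene, and the lowest value is that of ATG4C at -0.96.

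The initiation, conjugation and receptor genes differed in the size and the spread of their changes. The 5 cargo receptors were all higher, by 0.40 to 1.95 on the log2 scale with a median of 1.44, and 4 of them by 2-fold or more. Of the 5 initiation genes 4 were higher and ULK2 was not called, with a median of 0.61 and only ATG101 past 2-fold. The 10 conjugation genes split into 5 higher, 3 lower and 2 not called, with a median of -0.02 and 0 past 2-fold. SQSTM1, OPTN, TAX1BP1 and CALCOCO2 each had a larger log2 fold change than any initiation or conjugation gene, while NBR1, at 0.40, lay inside the range of both. No test between the roles was made. With upper-quartile factors, total counts or FPKM in place of TMM scaling the conjugation median was between -0.19 and -0.13, the initiation median between 0.42 and 0.47 and the receptor median between 1.24 and 1.29, so the order of the roles stayed as given.

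In the initiation complex the kinase ULK1 rose and its paralogue ULK2 did not pass the test. ATG101, which stabilizes the complex, had 912, 958 and 837 counts in untreated libraries 1, 2 and 3 and 1864, 1693 and 1637 in rhCYGB libraries 1, 2 and 3. All 3 treated libraries were above all 3 untreated ones, and the log2 fold change was 1.13 (edgeR adjusted p = 9.40e-10, with a standard error, SE, of 0.072 for the log2 value). With total counts in place of TMM scaling it was 0.97, under 2-fold. ULK1 averaged 27.1 ± 0.93 CPM without and 50.4 ± 3.65 CPM with rhCYGB (means ± SD over 3 libraries), and its log2 fold change was 0.90. RB1CC1, the scaffold also called FIP200, rose by 0.61 and ATG13, the regulatory subunit, by 0.42. ULK2 was at 59.8 ± 1.53 and 65.4 ± 7.0 CPM, with overlapping groups, a log2 fold change of 0.13 and an adjusted p of 0.073 from edgeR's test. Its sign depended on the scale, since with total counts the value was -0.035. Per length ULK1 was below ULK2 in untreated libraries, with an FPKM ratio of 0.56 to 0.72, and above it in rhCYGB libraries, with a ratio of 1.22 to 1.27.

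The PI3K complex moved in both directions. BECN1 and the catalytic subunit PIK3C3 were lower by small amounts, with log2 fold changes of -0.24 and -0.17. ATG14, which targets the complex to the forming autophagosome, rose by 0.49. UVRAG, the subunit of the complex that acts at endosomes and in maturation, had 731, 816 and 812 counts in the untreated and 2245, 1830 and 2199 counts in the rhCYGB libraries. The groups were far apart, with a log2 fold change of 1.60 (edgeR adjusted p = 1.39e-12, SE 0.058). The call for PIK3C3 was lost without untreated replicate 2 and without rhCYGB replicate 1, where its log2 fold change was -0.14 in both cases.

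Among genes for membrane supply, WIPI1 stood apart. WIPI1, which binds PI3P on the forming membrane, had 660, 712 and 646 counts in untreated and 2559, 2298 and 2725 counts in rhCYGB libraries. Its mean level was 16.5 ± 1.07 CPM before and 70.6 ± 2.85 CPM after treatment, 4.29-fold higher (edgeR adjusted p = 7.79e-14, SE 0.058 on the log2 scale). WIPI2, the paralogue that recruits ATG16L1, changed by only 0.12, and with total counts its value was -0.045. The FPKM ratio of WIPI1 to WIPI2 was 0.31 to 0.36 in untreated and 1.25 to 1.42 in rhCYGB libraries, so the order of the paralogues per length turned over. Of the lipid transfer proteins ATG2A rose by 0.33 and ATG2B was lower at -0.17, and ATG9A, the scramblase carried on vesicles, was lower at -0.39. The ATG2B call was lost without untreated replicate 3 and without rhCYGB replicate 1, and that of WIPI2 without untreated replicate 2 and without rhCYGB replicate 2. In the deposited positions WIPI1 overlaps PRKAR1A, with 9035 to 11827 counts per library, and ARSG, with 99 to 165. The libraries were stranded, but the sources used here do not say whether counting used strand, and reads lying in both genes may count for either.

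The conjugation machinery moved in both directions, also within single steps. ATG3, the E2-like enzyme that hands ATG8 proteins to the lipid, rose by 0.81, while ATG7, the E1-like enzyme that acts before it, was lower at -0.72. ATG5 rose by 0.72, ATG12 by 0.47 and ATG16L1 by 0.13, the 3 parts of the complex that directs conjugation to the membrane. The ATG12 value is that of the whole gene. Its coding transcript NM_004707, which held most of the counts, rose by 0.20 and was not called (edgeR adjusted p = 0.065). The ATG12 transcripts called higher, NR_033362 (0.88) and NR_073603, are noncoding. ATG10, the E2-like enzyme that joins ATG12 to ATG5, was at 8.60 ± 0.79 and 7.59 ± 0.56 CPM and was not called (edgeR adjusted p = 0.14). The ATG16L1 call was lost without untreated replicate 2 and with DESeq2, and with total counts its value was -0.030.

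The 4 ATG4 proteases, which trim ATG8 proteins and remove them from the lipid, did not move together. ATG4C had the largest change of the conjugation genes, with 440, 580 and 506 counts in untreated and 252, 203 and 228 counts in rhCYGB libraries. The treated libraries were all lower, with a log2 fold change of -0.96 (edgeR adjusted p = 2.11e-07, SE 0.096). With total counts it was -1.13, past 2-fold. ATG4B, the most abundant ATG4 per length at 16.9 ± 0.19 FPKM in untreated cells, was lower at -0.32, and ATG4A, at -0.22, just missed the call (edgeR adjusted p = 0.051). ATG4D rose by 0.65, and at 14.3 ± 1.18 FPKM the gene was then above ATG4B at 12.1 ± 0.14 FPKM. Its gene value includes noncoding transcripts, NR_104024 at a mean of 0.34 FPKM untreated and 1.59 treated and NR_104025 at 0.28 and 1.71. The coding transcripts of ATG4D, NM_032885 and NM_001281504, were at 7.64 and 3.37 FPKM after rhCYGB, and neither was called. The order of ATG4D and ATG4B is therefore not shown for coding RNA. The FPKM ratio of ATG4D to ATG4C went from a range of 2.31 to 2.57 to one of 7.34 to 7.77. ATG4D overlaps KRI1, ATG7 overlaps VGLL4, ATG3 overlaps SLC35A5 and ATG10 overlaps PPIAP11 in the deposited positions.

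Of the 5 ATG8 genes 4 rose and GABARAPL2 fell. GABARAPL1 had 519, 619 and 604 counts in untreated and 3100, 2695 and 2745 in rhCYGB libraries, the largest change of the 35 members with a log2 fold change of 2.49 (edgeR adjusted p = 1.48e-14, SE 0.059). MAP1LC3B, the LC3 gene most used to follow autophagosomes, had 4878, 5659 and 5164 counts against 19724, 17269 and 18645. The groups did not overlap, and the log2 fold change was 2.02 (edgeR adjusted p = 1.07e-15, SE 0.037). MAP1LC3A had 645, 714 and 592 counts against 2414, 2156 and 2124, a log2 fold change of 1.97 (edgeR adjusted p = 1.05e-12, SE 0.069). GABARAP, at 103 ± 1.13 CPM untreated and 168 ± 5.90 CPM treated, rose by 0.71 on the log2 scale. GABARAPL2, also called GATE-16, had 1470, 2012 and 1648 counts in untreated and 1014, 799 and 1022 in rhCYGB libraries. It thus moved against the other 4, with a log2 fold change of -0.66 (edgeR adjusted p = 2.84e-07, SE 0.067). Its window and that of GABARAPL1, both printed above, hold none of the 4 motifs. MAP1LC3B2, a near-identical copy of MAP1LC3B, had 37 to 39 counts in untreated and 113 to 152 in rhCYGB libraries, so a split of reads between the copies is uncertain but small beside the counts of MAP1LC3B.

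**Figure D2:**
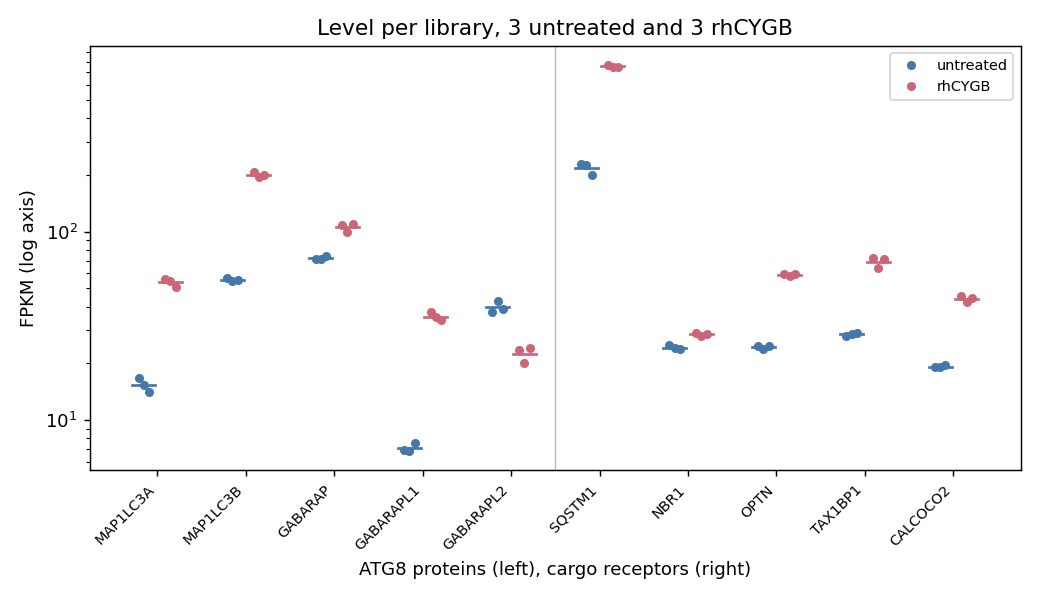
FPKM of the 5 ATG8 genes and the 5 cargo receptors (x axis) in each library on a log axis (y axis), with untreated libraries in blue, rhCYGB libraries in red and group means as lines. The groups do not overlap for any of the 10 genes, and only GABARAPL2 is lower after rhCYGB, at 22.5 against 39.8 FPKM on average.

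The composition of the ATG8 family shifted along with its total. Summed over the 5 genes the level per length was 189, 191 and 190 FPKM in untreated and 433, 405 and 419 FPKM in rhCYGB libraries. In untreated cells GABARAP took the largest part of this sum, 38.1% ± 0.76, followed by MAP1LC3B with 29.2% ± 0.63 and GABARAPL2 with 20.9% ± 1.33 (mean ± SD, n = 3 libraries). After rhCYGB the order was MAP1LC3B with 48.0% ± 0.40, GABARAP with 25.3% ± 0.94, MAP1LC3A with 12.9% ± 0.69, GABARAPL1 with 8.46% ± 0.33 and GABARAPL2 with 5.37% ± 0.42. GABARAP thus lost share although its level rose, and GABARAPL2 became the smallest part. MAP1LC3A had 8.08% ± 0.67 and GABARAPL1 3.74% ± 0.19 before treatment. For each of the 5 shares the groups were apart, with p = 0.1 from a two-sided exact permutation test over the libraries, the smallest p that 3 against 3 allows, and 0.1 after Benjamini-Hochberg adjustment over the 5 genes, so none could pass 0.05.

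**Figure D3:**
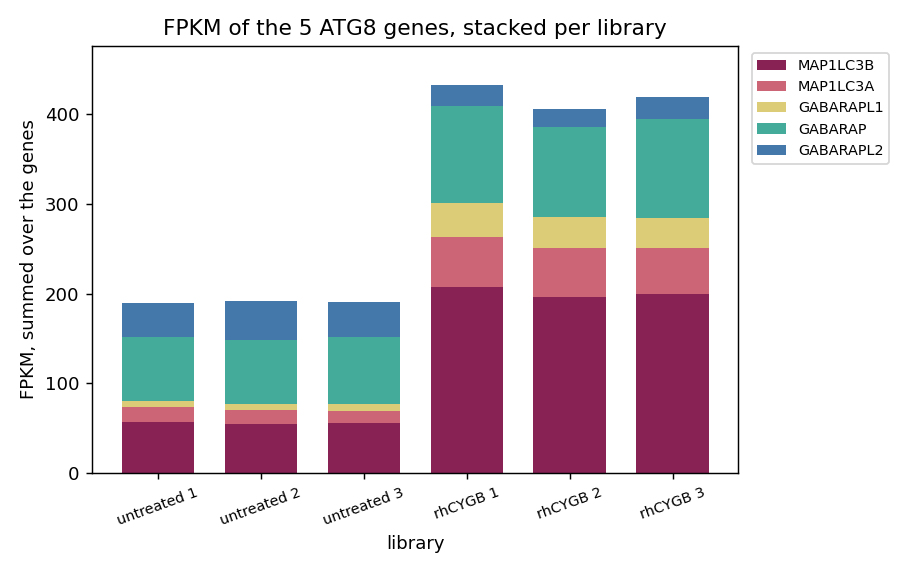
FPKM of the 5 ATG8 genes stacked for each of the 6 libraries (x axis), with the summed FPKM on the y axis. The sum lies between 189 and 191 in untreated and between 405 and 433 in rhCYGB libraries, and the part of MAP1LC3B grows while that of GABARAPL2 shrinks.

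Ratios within 6 pairs of paralogues were chosen after the gene values were seen. They restate the changes of the genes side by side, so no test is given for them. The log2 FPKM ratio of GABARAPL1 to GABARAPL2 was higher by 3.14, that of WIPI1 to WIPI2 by 1.98, of ATG4D to ATG4C by 1.61, of ULK1 to ULK2 by 0.96 and of ATG2A to ATG2B by 0.50. The ratio of MAP1LC3A to MAP1LC3B, at 0.25 to 0.29 in untreated and 0.25 to 0.28 in rhCYGB libraries, overlapped between the groups.

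All 5 cargo receptors rose, led by SQSTM1. SQSTM1, also called p62, binds ubiquitin and LC3 and holds KEAP1. It had 26125, 30870 and 24645 counts in untreated and 96507, 87399 and 92296 in rhCYGB libraries, and per length it was the most abundant member in both groups, at 218 ± 15.7 and 754 ± 9.46 FPKM. Its log2 fold change was 1.95 (edgeR adjusted p = 2.04e-14, SE 0.048). SQSTM1 overlaps MGAT4B and MRNIP in the deposited positions, and MGAT4B had 11639 to 15242 counts per library.

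OPTN, TAX1BP1 and CALCOCO2 (NDP52), receptors that act on ubiquitin-coated mitochondria and bacteria, rose by similar amounts. OPTN had 3430, 4001 and 3717 counts against 9319, 8304 and 9086, a log2 fold change of 1.45 (edgeR adjusted p = 2.31e-14, SE 0.036). TAX1BP1 had 3811, 4647 and 4255 counts against 10764, 8842 and 10452, with a log2 fold change of 1.44 (edgeR adjusted p = 9.42e-14, SE 0.041). CALCOCO2 had 2783, 3339 and 3079 counts against 7355, 6287 and 7077, with a log2 fold change of 1.37 (edgeR adjusted p = 6.71e-14, SE 0.037). For each of these genes all treated libraries were above all untreated ones. NBR1, which shares the domain plan of SQSTM1, rose less, by 0.40 on the log2 scale, with means of 120 ± 3.65 CPM untreated and 158 ± 1.92 CPM treated. STX17, the SNARE of the finished autophagosome, had 1349, 1439 and 1388 counts in untreated and 1182, 1063 and 1271 in rhCYGB libraries, and after scaling the groups overlapped (log2 fold change -0.06, edgeR adjusted p = 0.39). This too depended on the scale, since with total counts STX17 was called lower at -0.22 (edgeR adjusted p = 0.0033), as were ATG4A at -0.39 and ATG10 at -0.35, and the FPKM ranges of STX17, 4.34 to 4.87 untreated and 3.76 to 4.24 treated, did not overlap. Over all alternatives its adjusted p lay between 0.0033 and 0.84.

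Below the gene level, 120 of the 164 transcripts listed for the members had enough counts. By the same edgeR test over 32577 transcripts, 26 were higher, where 15.1% of all transcripts were, and 8 were lower, where 14.8% were. The remaining 86 were not called, which does not show that they were unchanged, since most changed transcripts were also missed in simulated counts. Of the 26 members with 2 or more tested transcripts, SQSTM1 was the only one called in both directions (3.85%, against 5.78% of all 7019 such genes). Its transcript from the downstream start, NM_003900, had 24946, 28734 and 23033 counts in untreated and 95273, 85731 and 90684 in rhCYGB libraries, a log2 fold change of 1.94. NM_001142298, whose start lies 14512 bases upstream, had 321, 220 and 485 counts against 98, 124 and 122, a log2 fold change of -1.47 (edgeR adjusted p = 0.036, SE 0.38). The middle start, 616 bases after the first, gave NM_001142299 with 858, 1916 and 1127 counts against 1136, 1544 and 1490, and its groups overlapped. The fall of the upstream transcript is weakly held, because the call was lost without untreated replicate 1 or 3, without any 1 of the 3 rhCYGB libraries and with no filter on low counts, with adjusted p-values from edgeR between 0.018 and 0.12 over all alternatives. The distances between the 3 starts in the deposited table equal those between the 3 RefSeq windows printed above, which ties each transcript to its window. The 250 bases before the downstream start are 73.6% G and C and those before the upstream start 75.2%.

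**Figure D4:**
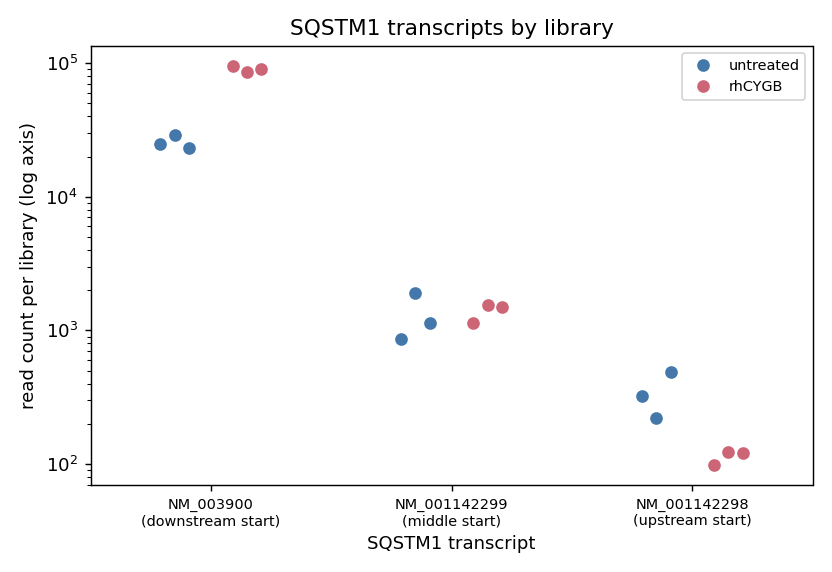
Read counts of the 3 SQSTM1 transcripts (x axis) in each library on a log axis (y axis), untreated in blue and rhCYGB in red. The downstream transcript lies between 23033 and 28734 counts untreated and between 85731 and 95273 after rhCYGB, the middle one overlaps, and the upstream one lies between 220 and 485 untreated and between 98 and 124 after rhCYGB.

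Other members had a called transcript whose change was larger than that of the gene, chosen here after their values were seen. For BECN1 the transcript NM_001313999 had 216, 383 and 490 counts in untreated and 71, 73 and 71 in rhCYGB libraries, a log2 fold change of -2.21 against -0.24 for the gene. For ATG9A, NM_001077198 had 1364, 2572 and 1508 counts against 447, 401 and 738, a log2 fold change of -1.65 against -0.39. The other coding transcript of ATG9A, NM_024085, lay the other way at 0.94 and was not called. It had 789, 127 and 723 counts against 1199, 937 and 877, so a division of reads between the transcripts cannot be told apart from a fall of NM_001077198. ULK2, not called as a gene, had NM_001142610 at 173, 452 and 623 counts against 141, 102 and 101, and this call was lost without untreated replicate 2 or 3 and without any 1 of the rhCYGB libraries. A noncoding transcript of ATG12, NR_073603, was listed at 0 in the untreated libraries and at 122, 145 and 95 counts after rhCYGB. CALCOCO2 had NM_001261390 with 3, 4 and 4 counts against 863, 57 and 354, where the treated libraries differ widely among themselves. Transcripts of one gene share most of their sequence and the assembler divides the reads among them, so these counts are less certain than those of genes.

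Beyond the 35 members, 70 of 75 further autophagy genes in 5 lists could be tested, and 47 were higher, 17 lower and 6 not called, with a median log2 fold change of 0.50, where 39% of all genes tested were higher and 38.6% lower. Of 14 tested early factors 11 were higher and 1 lower, among them ATG9B, a paralogue of ATG9A on few counts (7, 12 and 0 against 20, 35 and 28), at 2.32, NRBF2, a subunit of the ATG14 complex, at 1.72, and RUBCN, which restrains the UVRAG complex, at 1.14, and TP53INP1 at 1.08. Of 18 tested organelle receptors and adaptors 11 were higher and 4 lower. CCPG1, a receptor for endoplasmic reticulum, was at 2.04, STBD1, for glycogen, at 1.38 and TOLLIP at 1.26, while CALCOCO1 was at -1.09. BNIP3 and FUNDC1, receptors on mitochondria, were listed at 0 in all libraries. Of 14 fusion and tethering factors 8 were higher and 6 lower, with PLEKHM1 at 1.31, STX7 at 1.07 and the SNARE VAMP8, a partner of STX17, at -1.33.

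The last lists held the kinases that govern initiation and transcription factors known to act on autophagy genes. Of 12 tested mTORC1 and AMPK subunits and the AMPK kinase STK11, 7 were higher and 4 lower, where 39% and 38.6% of all genes tested were. Named after their values were seen, the 4 lower ones were MTOR (-0.60), RPTOR (-0.46), AKT1S1 (-0.70) and DEPTOR (-0.74), components of mTORC1 or its inhibitors, while MLST8, another core subunit, was higher (0.55). The AMPK subunits PRKAB1 and PRKAA2 had the largest rises, 1.21 and 1.12. Of 12 tested transcription regulators 10 were higher and 2 lower, and 7 of the 10 by 2-fold or more, where 12.4% of all genes tested were. Because this list too was chosen with earlier results of these data known, the difference in shares may partly restate that choice. TFEB, a master regulator of lysosomal and autophagy genes that binds E-box elements, had 79, 78 and 85 counts in untreated and 569, 491 and 482 in rhCYGB libraries, a log2 fold change of 2.86 (edgeR adjusted p = 1.04e-11, SE 0.12). DDIT3 (CHOP), CEBPB and ATF4, factors of the integrated stress response, had log2 fold changes of 4.09, 3.00 and 1.95. RNA of a factor does not measure its activity, and no relation between these factors and the members was tested.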

How the data were processed

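RNA-seq of 3 untreated and 3 rhCYGB-treated MIA PaCa-2 libraries (stranded mRNA kit, paired ends) was used. The submitters' processing notes name FastQC 0.11.7, HISAT2 2.1.0 and StringTie 2.1.3b, and the build mm10, which is a mouse build. The files name no build, and the positions of 29 of the 35 members did not overlap their GRCh38 positions, so positions were used only for overlaps and distances within the table, and printed coordinates are those of the RefSeq windows. The authors deposited read counts per gene and per transcript, not normalized, and FPKM values, scaled to length and mapped reads. The 12 deposited TPM columns were not used. Columns were assigned to groups from the labels.

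Counts were fitted on the whole table with edgeR 4.0.16 in R 4.3.3 (filterByExpr, TMM, quasi-likelihood test, no block), with Benjamini-Hochberg adjustment over all features tested and a threshold of 0.05, with and without a fold change of 2. CPM used TMM-scaled library sizes. Counts in every library are given for members past 2-fold and for the largest change of each role, and for a few others. Genes of other lists were named past 2-fold, at most 4 a list by size, with the exceptions stated. The fits were tested on simulated data, where fold changes were recovered, false gene calls were more frequent than the nominal rate, by edgeR and the other tools, and most changed transcripts were not called. Members with an adjusted p near 0.05 are therefore less certain than the threshold states. Members, lists and motifs were chosen with earlier results of these data known, and paralogue pairs and single transcripts after their values were seen. Alternatives were DESeq2 1.42.0 (size factors and Wald test), upper-quartile factors, total counts, limma 3.58.1 on FPKM with a pseudocount of 1 or 0.1 on the log2 scale, no filter, at least 10 counts in every library, a replicate block and leaving out each library. The SDs and the SEs from edgeR describe the spread between these libraries, and the CPM of a count of 3 reflects library size only. None of them covers error beyond these libraries.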

Additional observations from a re-analysis of the deposited data

How the results depend on the processing

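The number of members called higher lay between 20 and 24, and of members called lower between 6 and 11, over 15 alternatives, of which 9 or 10 were higher by 2-fold. ATG4C became the 1 member lower by 2-fold with upper-quartile factors, total counts, limma on log2(FPKM + 0.1) and without rhCYGB replicate 1 (leave-one-out range 0 to 1). With DESeq2 size factors and the DESeq2 Wald test the median of all genes stayed at -0.016 and -0.015, with 49.6% and 49.8% of calls higher. It moved to -0.15 with upper-quartile factors and -0.17 with total counts. With limma on log2(FPKM + 1) and log2(FPKM + 0.1) it was -0.086 and -0.15. For upper-quartile factors, total counts and these limma fits, the share of higher genes among calls went from 50.2% to 42.4%, 41%, 41.3% and 41.2%. In that order of settings, the median was 0.47, 0.45, 0.42 and 0.44 for initiation, -0.16, -0.19, -0.13 and -0.18 for conjugation, 1.83, 1.81, 1.75 and 1.80 for ATG8 proteins and 1.29, 1.27, 1.24 and 1.27 for cargo receptors. The median of membrane supply genes, and WIPI2, which is that median, reversed to -0.021, -0.045, -0.041 and -0.043, ULK2 to -0.012, -0.035, -0.20 and -0.23, and ATG16L1 to -0.0066, -0.030, -0.014 and -0.015. The PI3K median reversed to -0.0087 with total counts and -0.0058 with limma on log2(FPKM + 0.1). With 1 library left out, the conjugation median ranged from -0.044 to 0.027 and was positive without untreated replicate 3 (0.027) and without rhCYGB replicate 3 (0.000355), and the shift of the log2 ratio of MAP1LC3A to MAP1LC3B ranged from -0.10 to 0.0022 and was positive without untreated replicate 1. Transcripts called lower numbered 5 to 7 when 1 library was left out. The causes were not tested.

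Libraries with the same replicate number did not deviate together (r = -0.048, 0.0072 and 0.0055 across genes). No pairing by number was thus seen, which does not show that none was designed. With the replicate block the members' calls stayed at 23 and 8, and member transcripts called lower went from 8 to 4. Of 525 values of single members under alternatives, 487 kept direction and side of the threshold, 10 lost the call, 16 gained it and 12 reversed. What depth limits was not tested by thinning the counts.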
